A study of Ostrinia furnacalis with 30 samples.

Results

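Arylphorins are storage proteins of moth and butterfly larvae. The subunits are rich in the aromatic amino acids phenylalanine and tyrosine, join into hexamers, are made by the fat body of feeding larvae and are secreted into the hemolymph, from which the fat body takes them back before pupation as a store of amino acids for building the adult. They belong to the hemocyanin superfamily, together with the prophenoloxidases and the other insect storage hexamers, among which are the juvenile hormone-suppressible proteins.

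Of the 20852 gene models with deposited values in Ostrinia furnacalis, the Asian corn borer, 4 are described as arylphorin subunit alpha, and these were taken by their gene identifiers. They are LOC114359093 (gene 114359093), LOC114353553 (gene 114353553), LOC114359671 (gene 114359671) and a short model that the authors added to the annotation, called the added model here. Whole wild-type animals had been sequenced at 6 stages, namely embryo, 1st, 3rd and 5th instar larva, pupa and adult, and so had 4 tissues of wild-type 3rd instar larvae, namely fat body, hemolymph, midgut and silk gland. Each of these 10 groups had 3 libraries, which makes 30 in all. Every library pooled several animals or the tissue of several larvae, and pupae and adults were mixed from both sexes. Nothing in the sources used here says that the 3 pools of a group came from separate rearings, so p-values measure the spread between pools, which may be technical. Library depth was 10908503 to 17774377 fragments assigned to gene models, and levels are given as FPKM, fragments scaled to the length of the gene model and to library size, after the authors' scaling between libraries.

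The 4 models lie on 3 scaffolds of the assembly ASM419383v1. LOC114359093 is found on the plus strand of NW_021134473.1 from position 245209 to 248038, with 2216 bases of gene model, and is annotated as protein coding. The added model follows on the same strand from 254132 to 255182, 6093 bases further on, and is the last of the 16 gene models of that scaffold. It has only 619 bases, and its best match in the table is the arylphorin subunit alpha of the tobacco hornworm Manduca sexta. LOC114353553 lies on the minus strand of NW_021131982.1 from 307234 to 310850, with 2235 bases. LOC114359671 lies on the minus strand of NW_021134796.1 from 140260 to 150193 and has 7231 bases, far more than the other annotated models. Other storage proteins lay near them, though not always as the next gene model. LOC114359098, described as acidic juvenile hormone-suppressible protein 1-like, is on the scaffold of LOC114359093 from 231782 to 235118, with other gene models between them. LOC114359673 (131432 to 134334) and LOC114359670 (157546 to 160764), both described as basic juvenile hormone-suppressible protein 2-like, lie on either side of LOC114359671. A troponin C model lies between LOC114359673 and LOC114359671. The study's methods name RSEM, which divides fragments that match several models between them and so need not give whole numbers, whereas the fragments recovered from these values were whole. How shared fragments were assigned is therefore uncertain, and so is the split of signal between arylphorin models.

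The labelled tissues were checked against gene descriptions. The 8 genes named for vitellogenins, which are yolk proteins, for their receptors and for apolipophorins, which carry lipids, summed to 12612–22613 FPKM in fat body libraries, against 2007–2772 in hemolymph, 28.1–50.2 in midgut and 90.8–136 in silk gland. The leading one, LOC114355821, an apolipophorin-3-like gene, had 11862–21566 FPKM in fat body and 252–321 FPKM in hemolymph. It made up most of the fat body sum but little of the hemolymph sum. The remaining genes of the list together were higher in every hemolymph library than in any fat body library. The excess of this sum in fat body over hemolymph thus rests on LOC114355821. The 8 hemocyte genes (hemocytins and phenoloxidases, led by LOC114361886, a phenoloxidase subunit 2-like gene of the melanization response) summed to 3898–6543 FPKM in hemolymph and to at most 16.6 FPKM in the other tissues. The 30 midgut genes, matched by words for peritrophins, aminopeptidases and chymotrypsins and led by LOC114354906, chymotrypsin-1-like, a digestive enzyme, summed to 4276–8872 FPKM in midgut, 2093–2687 FPKM in silk gland and at most 211 FPKM in fat body. The words also took in LOC114351968 (antichymotrypsin-2-like) and LOC114351661 (chymotrypsin inhibitor-like), which are no digestive enzymes, and LOC114363130 (aminopeptidase NPEPL1). Without these 3 genes, a choice made after seeing the data, the list summed to 4270.0–8869.6 FPKM in midgut, 63.7–75.4 FPKM in silk gland and at most 202 FPKM in fat body. The 5 silk genes, led by LOC114360339, fibroin light chain-like, a component of the silk fibre, reached 133033–159253 FPKM in silk gland and at most 8.35 FPKM in the other tissues.

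The fat body held by far the highest arylphorin levels of the 30 libraries. The 4 models took 13.8%, 21.7% and 17.5% of the fragments assigned to gene models in fat body libraries 1, 2 and 3 (17.7% ± 3.98, SD, n = 3), against 0.0965% ± 0.0562 in hemolymph, 0.00157% ± 0.00237 in midgut and 0.0305% ± 0.0126 in silk gland (SD, n = 3 each). LOC114359093 and LOC114353553 ranked 1st and 2nd by FPKM among all gene models in each of the 3 fat body libraries, in either order, and the added model ranked 21, 4 and 7. In such bulk samples, fewer cells of a type and less RNA per cell cannot be told apart.

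**Figure D1:**
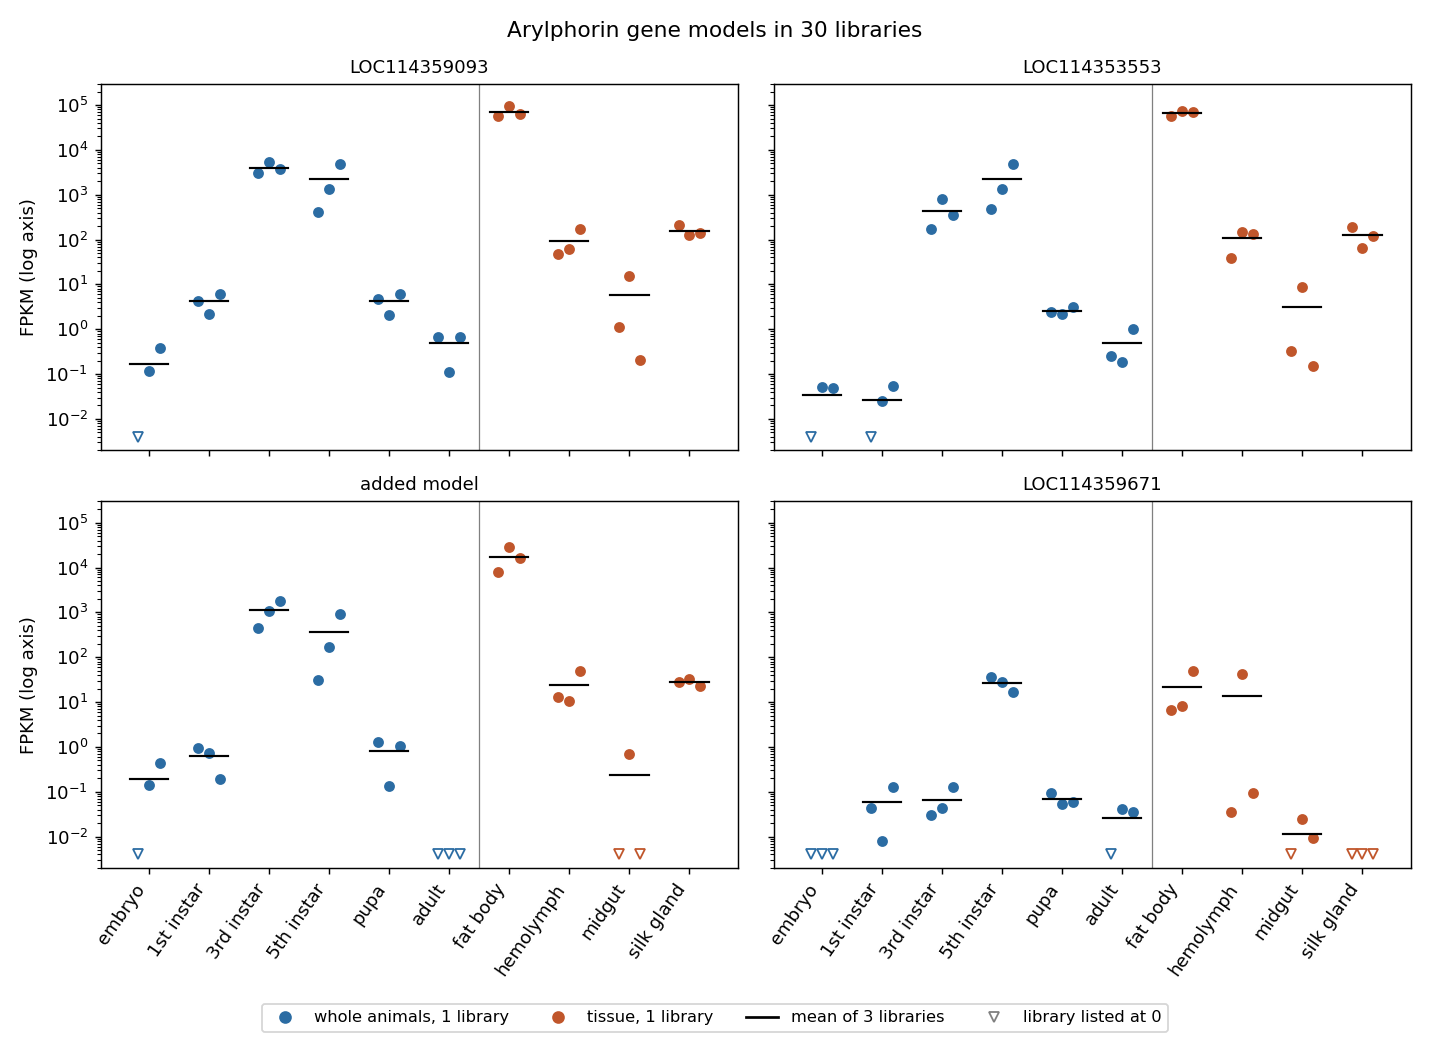
FPKM (log axis) of the 4 arylphorin models in every library, with whole animals from embryo to adult on the left and tissues of 3rd instar larvae on the right of each panel. Points are libraries, lines are means of 3 libraries, and open triangles are libraries listed at 0. LOC114359093, LOC114353553 and the added model peak in the fat body libraries (7813 FPKM or more), whereas the LOC114359671 values of fat body (6.60 to 50.2 FPKM) and whole 5th instar larvae (17.2 to 36.8 FPKM) overlap.

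LOC114359093 had 56104, 95154 and 62374 FPKM in fat body, against 47.4, 60.3 and 171 FPKM in hemolymph, 1.14, 15.7 and 0.211 FPKM in midgut, and 209, 127 and 140 FPKM in silk gland. Every fat body library stood above every library of the other tissues. The differences on the log2(FPKM + 1) scale were 9.76 over hemolymph (SE 0.46, adjusted p = 3.44e-06), 14.27 over midgut (SE 0.89, adjusted p = 1.22e-05) and 8.79 over silk gland (SE 0.30, adjusted p = 1.56e-06).

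LOC114353553 reached the same height in fat body, with 56157, 75150 and 68970 FPKM, against 38.6, 148 and 133 FPKM in hemolymph, 0.323, 8.95 and 0.15 FPKM in midgut, and 190, 65.2 and 122 FPKM in silk gland. Its log2 differences were 9.48 over hemolymph (SE 0.48), 14.71 over midgut (SE 0.77) and 9.16 over silk gland (SE 0.38), all called. The groups did not overlap in any of these 3 comparisons.

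The added model varied more between fat body pools than LOC114359093 and LOC114353553 did. It had 7813, 28827 and 16101 FPKM in fat body, against 13.2, 10.6 and 48.9 FPKM in hemolymph, 0, 0.709 and 0 FPKM in midgut, and 28.3, 32.3 and 23.1 FPKM in silk gland. Fat body was again above all other tissues without overlap, by 9.57 (SE 0.64), 13.65 (SE 0.48) and 9.07 (SE 0.45) on the log2 scale over hemolymph, midgut and silk gland in that order. A value of 0 in midgut means that no fragment was counted, which allows up to 3 fragments, and such floors cover counting error only.

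A gene was called at an adjusted p under 0.05 and a log2 difference of at least 1. Of the 4 models, 3 were called higher in fat body than in hemolymph, beside 23.3% of 10213 genes tested. All 4 were called higher than in midgut, beside 16% of 10668 genes, and all 4 higher than in silk gland, beside 18.4% of 10429 genes. A model near 0 in one tissue entered the test only through the other tissue, so these counts describe the models and are no separate evidence. The 3 models LOC114359093, LOC114353553 and the added model were called higher in fat body than in each of the 3 other tissues, and no model was called lower in fat body by limma-trend or by limma-voom, nor at an unadjusted p under 0.05.

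Outside the fat body, midgut was separated from the other tissues. Mean hemolymph levels of LOC114359093, LOC114353553 and the added model were 0.130%, 0.160% and 0.138% of the fat body means, and those of silk gland were 0.223%, 0.188% and 0.159%. Midgut lay lowest, at 0.00797%, 0.00470% and 0.00134%. These 3 models, the ones tested, were called higher in hemolymph than in midgut, by 4.51, 5.23 and 4.08 on the log2 scale, beside 17.9% of 10586 genes called higher. They were called lower in midgut than in silk gland, by -5.48, -5.55 and -4.58, beside 16.6% of 10561 genes called lower. Within midgut, replicate 2 held most of the signal, and the fat body marker genes summed to 50.2 FPKM there, against 35.8 and 28.1 FPKM in replicates 1 and 3. In hemolymph the same markers summed to 2007–2772 FPKM, mostly from genes other than LOC114355821. That gene had 252–321 FPKM in hemolymph and 11862–21566 FPKM in fat body. The part of fat body RNA in the arylphorin signal of other tissues was not tested. Over the 6 pairs of tissues, 21 of the 24 values of the 4 models could be tested and 17 were called, 14 higher and 3 lower in the tissue named first (in the order fat body, hemolymph, midgut, silk gland), beside 19.2% and 18.9% of 62717 values over all genes.

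Hemolymph and silk gland could not be ordered. With the deposited scaling, the log2 differences of hemolymph over silk gland were -0.97 (SE 0.46), -0.32 (SE 0.57) and -0.50 (SE 0.51) for LOC114359093, LOC114353553 and the added model, with overlapping libraries, and 0 of the 3 were called by limma-trend or had an unadjusted p under 0.05, beside 40.2% of 10260 genes called in either direction. Scaled to the recovered fragments, which moved the median of all genes by 1.47 in this pair, the differences turned to 0.89, 1.53 and 1.28, and LOC114353553 (adjusted p = 0.0413) and the added model (adjusted p = 0.0466) were called higher in hemolymph; limma-voom called LOC114353553 alone. Without hemolymph replicate 3, LOC114359093 (-1.52, adjusted p = 0.00540) and the added model (-1.16, adjusted p = 0.00831) were called lower in hemolymph.

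**Figure D2:**
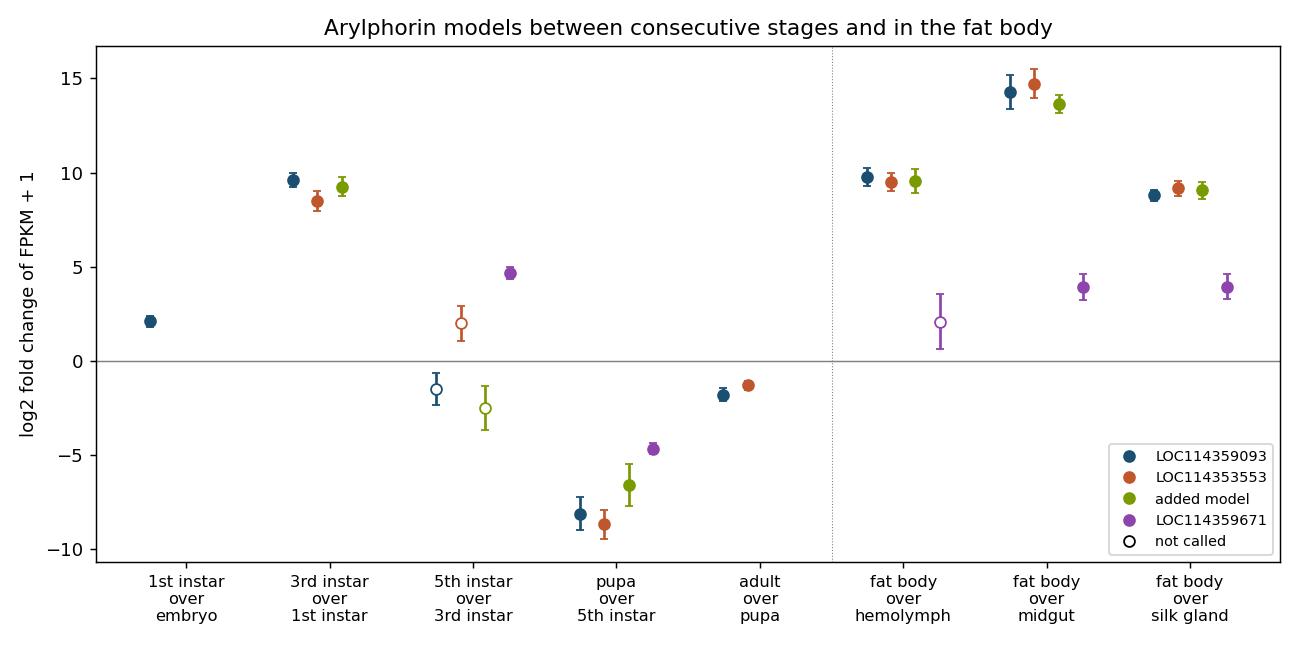
Log2 fold change of FPKM + 1 for the 4 arylphorin models between consecutive stages (later over earlier) and between fat body and each other tissue, with bars for the standard error of limma-trend. Filled points were called, open points were not, and models that failed the filter on low values are left out. The 3rd over 1st instar values (8.48 to 9.62) and the pupa over 5th instar values (-8.67 to -4.66) lie farther from 0 than the values of 1st instar over embryo (2.10) and of adult over pupa (-1.79 and -1.31).

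Across stages, arylphorin RNA was found mainly in 3rd and 5th instar larvae. LOC114359093 had 0, 0.117 and 0.392 FPKM in embryos, 4.36, 2.18 and 6.13 FPKM in 1st instars, 2976, 5486 and 3657 FPKM in 3rd instars, 412, 1330.2 and 4916 FPKM in 5th instars, 4.83, 2.10 and 6.02 FPKM in pupae, and 0.679, 0.109 and 0.659 FPKM in adults. The 3rd and 5th instar libraries stood above all libraries of the other stages and overlapped each other. Its difference of the 3rd over the 1st instar was 9.62 on the log2 scale (SE 0.37, adjusted p = 6.92e-05), and that of the pupa over the 5th instar was -8.12 (SE 0.86, adjusted p = 0.00174). It was also the only model above 1 FPKM in 1st instars, where it lay 2.10 above embryos (SE 0.31, adjusted p = 0.000599).

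LOC114353553, unlike LOC114359093, was below 1 FPKM in 1st instars, and it too was high in 3rd and 5th instars. It had at most 0.0516 FPKM in embryos and 0.0538 FPKM in 1st instars, 171, 808 and 349 FPKM in 3rd instars, 482, 1329 and 4826 FPKM in 5th instars, 2.43, 2.17 and 3.22 FPKM in pupae, and 0.253, 0.189 and 1.04 FPKM in adults. The 3rd instar was 8.48 above the 1st instar on the log2 scale (SE 0.52, adjusted p = 0.000365), and the pupa lay 8.67 below the 5th instar (log2 difference -8.67, SE 0.76, adjusted p = 0.00110). Pupae still stood above 1st instars for this model, by 1.80 (SE 0.16, adjusted p = 8.24e-05, called higher beside 19.3% of 12388 genes), and no libraries overlapped. For LOC114359093 the same difference was 0.02 (SE 0.40, adjusted p = 0.971), with overlapping libraries.

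The added model had at most 0.438 FPKM in embryos and 0.925 FPKM in 1st instars, 456, 1088 and 1815 FPKM in 3rd instars, 30.7, 166 and 906 FPKM in 5th instars, 1.29, 0.137 and 1.06 FPKM in pupae, and no fragment in the 3 adult libraries. Against a floor of 3 fragments per adult library, its mean level was at least 3316-fold higher in 3rd instars and at least 1088-fold higher in 5th instars than in adults. Without 3rd instar replicate 3, left out after seeing the data, the bound for 3rd instars was 2286-fold. Without 5th instar replicate 3, also left out after seeing the data, that for 5th instars was 291-fold. The pupa lay below the 5th instar by -6.59 (SE 1.12, adjusted p = 0.00725).

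Among stages, LOC114359671 was low in 3rd instars. It had 0 FPKM in all embryo libraries, 0.00787–0.125 FPKM in 1st instars, 0.030, 0.0429 and 0.127 FPKM in 3rd instars, 36.8, 27.8 and 17.2 FPKM in 5th instars, 0.0526–0.0922 FPKM in pupae and at most 0.0418 FPKM in adults. Only the 5th instar libraries exceeded 1 FPKM, and they did not overlap with any other stage. The 5th instar was 4.67 above the 3rd instar (SE 0.31, adjusted p = 0.00201) and the pupa lay below the 5th instar by -4.66 (SE 0.28, adjusted p = 0.000329). Such differences are compressed by the added 1 FPKM where a group is near 0, and with 0.1 FPKM added the difference of the 5th over the 3rd instar was 7.34. Against the floor of 3 fragments, its mean in 5th instars was at least 2349-fold higher than in embryos. Without 5th instar replicate 1, left out after seeing the data, that bound was 1939-fold.

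Of the models tested between consecutive stages, 1 of 1 was called higher in 1st instars than in embryos (34.6% of 11524 genes), 3 of 3 higher in 3rd than in 1st instars (7.72% of 11217 genes), 1 of 4 higher in 5th than in 3rd instars (6.81% of 11636 genes), 4 of 4 lower in pupae than in 5th instars (12.4% of 12145 genes) and 2 of 2 lower in adults than in pupae (25% of 12228 genes). In the last step LOC114359093 lay at -1.79 (SE 0.34, adjusted p = 0.00332) and LOC114353553 at -1.31 (SE 0.26, adjusted p = 0.00351), both without overlap, and the call of LOC114353553 was lost with all stages in 1 fit (adjusted p = 0.0754). Over the 15 pairs of stages, 40 of the 60 values of the 4 models could be tested, 19 were called higher and 17 lower in the later stage. Over all genes, 21.9% of 176314 such values were called higher and 19% lower. Models below the filter in one stage again entered through the other stage.

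The stage means of LOC114359093 were 0.17 ± 0.201 FPKM in embryos, 4.22 ± 1.97 in 1st instars, 4039 ± 1298 in 3rd instars, 2219.5 ± 2379.9 in 5th instars, 4.32 ± 2.01 in pupae and 0.482 ± 0.324 in adults (SD, n = 3 each). Its order was thus 3rd instar, 5th instar, pupa, 1st instar, adult, embryo, in which the 3rd and 5th instars, and pupae and 1st instars, were not separated beyond their spread, and adults and embryos were too low to be tested against each other. The stage means of LOC114353553 were 0.0334 ± 0.0290 FPKM in embryos, 0.0264 ± 0.0269 in 1st instars, 443 ± 328 in 3rd instars, 2212 ± 2303 in 5th instars, 2.61 ± 0.544 in pupae and 0.493 ± 0.473 in adults (SD, n = 3 each). Its order began with the 5th instar, which overlapped the 3rd, followed by pupae and adults, and its 3 lowest stages were not tested against each other. For the added model the 5th instar (367 ± 471 FPKM) and the 3rd instar (1119 ± 680 FPKM) likewise overlapped.

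Between the 5th and the 3rd instar, LOC114359093 and LOC114353553 differed with opposite signs, and neither difference was called. LOC114359093 lay at -1.49 (SE 0.86, adjusted p = 0.322), the added model at -2.52 (SE 1.18, adjusted p = 0.226) and LOC114353553 at 2.0 (SE 0.92, adjusted p = 0.221), each with overlapping libraries. With all stages in 1 fit, LOC114353553 (adjusted p = 0.0264) and the added model (adjusted p = 0.0315) were called at the same differences. The 5th instar pools varied widely, with replicate 3 the highest for these 3 models and the lowest for LOC114359671.

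The ratio of LOC114353553 to LOC114359093 within a library does not depend on how the library was scaled. It was 1.17, 0.999 and 0.982 in 5th instars, against 0.0576, 0.147 and 0.0955 in 3rd instars. In fat body it was 1.00, 0.790 and 1.11, so fat body and 5th instar libraries overlapped and all 6 stood above the whole 3rd instars, the stage from which the fat body was labelled. The log2 difference was 3.49 for 5th over 3rd instar and 3.36 for fat body over whole 3rd instar. Each had p = 0.1 in an exact two-sided permutation test, the smallest p that 3 against 3 libraries allow (0.15 after Benjamini-Hochberg adjustment over the 3 comparisons). The test could thus not fall below 0.1 whatever the ratios, and the design had planned the ratios as description only. Fat body and 5th instar differed by -0.13 (exact permutation p = 0.6). The ratio was 0.502–1.04 in pupae, 0.512–0.906 in silk gland, and 0.814, 2.46 and 0.781 in hemolymph, where replicate 2 stood apart.

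**Figure D3:**
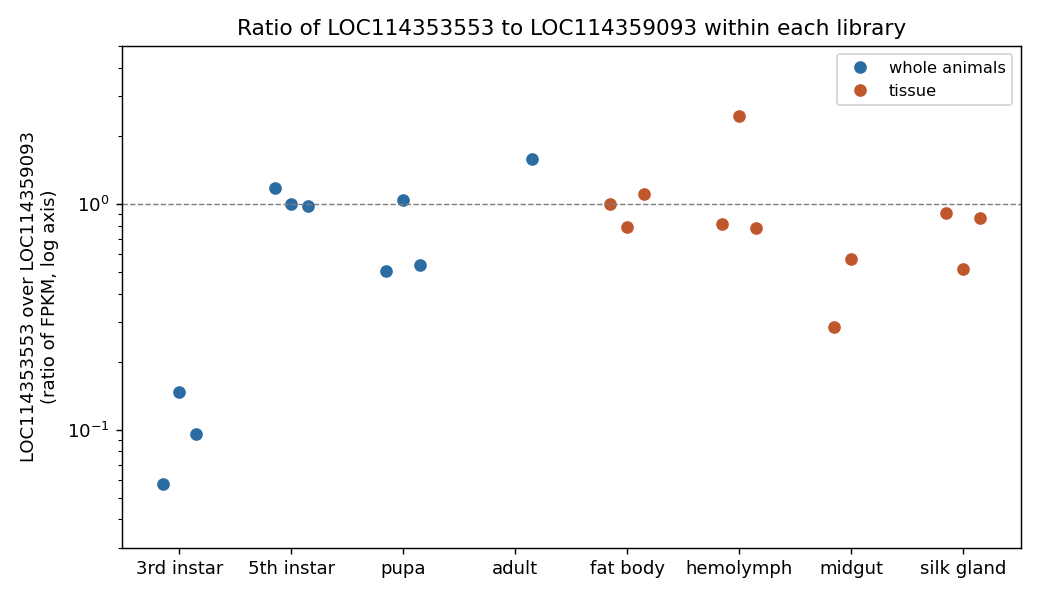
Ratio of LOC114353553 to LOC114359093 (FPKM over FPKM, log axis) in every library with at least 10 fragments of both models, by stage and tissue. Points are libraries, and the dashed line marks equal levels. The 3 whole 3rd instar libraries (0.0576 to 0.147) lie below all other libraries shown, including fat body (0.790 to 1.11).

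LOC114359671 was higher in fat body than in midgut and silk gland, and its comparison with hemolymph rested on 1 library. It had 6.60, 8.37 and 50.2 FPKM in fat body, against 0.0353, 41.4 and 0.0937 FPKM in hemolymph, 0, 0.0243 and 0.00925 FPKM in midgut, and 0 FPKM in all silk gland libraries. Fat body lay above midgut by 3.93 (SE 0.68, adjusted p = 0.00275) and above silk gland by 3.94 (SE 0.68, adjusted p = 0.00312), and its mean was at least 282-fold higher than the silk gland floor of 3 fragments per library, or 97.2-fold without fat body replicate 3. Fat body and hemolymph overlapped (2.08, SE 1.45, adjusted p = 0.258) with 7543 fragments in hemolymph replicate 2, while replicates 1 and 3 held 6 and 17. Without that library the difference was 3.85 (adjusted p = 0.0124), and LOC114359671 too was then called higher in fat body than in all 3 other tissues.

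In hemolymph replicate 2 the fat body marker genes summed to 2647 FPKM, beside 2772 and 2007 FPKM in replicates 1 and 3, but LOC114355821, which leads that list in fat body, made up only 252 FPKM of it, beside 321 and 282 FPKM. The part of fat body RNA in this library was not tested. Its hemocyte genes summed to 3898 FPKM, beside 6543 and 6134 FPKM. It was also the library in which LOC114359670, next to LOC114359671 on the scaffold, had 774 FPKM, beside 1.45 and 5.96 FPKM in replicates 1 and 3.

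The juvenile hormone-suppressible proteins, hexamerins named after caterpillars in which juvenile hormone keeps their RNA low, were read beside the arylphorins. LOC114359098, the acidic protein, had 977, 1662 and 3535 FPKM in 5th instars, against 2.84, 8.42 and 4.33 FPKM in 3rd instars (log2 difference 8.28, SE 0.54, adjusted p = 0.00201). LOC114360699, described as basic juvenile hormone-suppressible protein 1-like, had 882, 278 and 3802 FPKM in 5th instars, against 0.0927, 0 and 0 FPKM in 3rd instars (9.89, SE 0.86, adjusted p = 0.00256). None of these libraries overlapped. LOC114359670 had 1502, 125 and 1265 FPKM in 5th instars, against 0, 0.0643 and 0.0952 FPKM in 3rd instars (9.21, SE 0.90, adjusted p = 0.00321). LOC114359673 was the exception, with 10.2, 21.7 and 7.51 FPKM in 5th instars, against 16.5, 13.7 and 22.2 FPKM in 3rd instars, overlapping and not called (-0.49, SE 0.41, adjusted p = 0.495).

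Of these genes, LOC114359670 was not called lower in pupae, whereas all 4 arylphorins were. It had 410, 601 and 439 FPKM in pupae, against 1502, 125 and 1265 FPKM in 5th instars, with overlapping libraries (-0.38, SE 0.91, adjusted p = 0.780). LOC114359098 (-6.94, SE 0.47), LOC114360699 (-5.12, SE 1.17) and LOC114359673 (-2.33, SE 0.39) were called lower in pupae. LOC114359673 was present in adults at 11.1, 13.5 and 18.6 FPKM, against 1.84, 2.06 and 0.952 FPKM in pupae (2.55, SE 0.27, adjusted p = 0.000271).

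**Figure D4:**
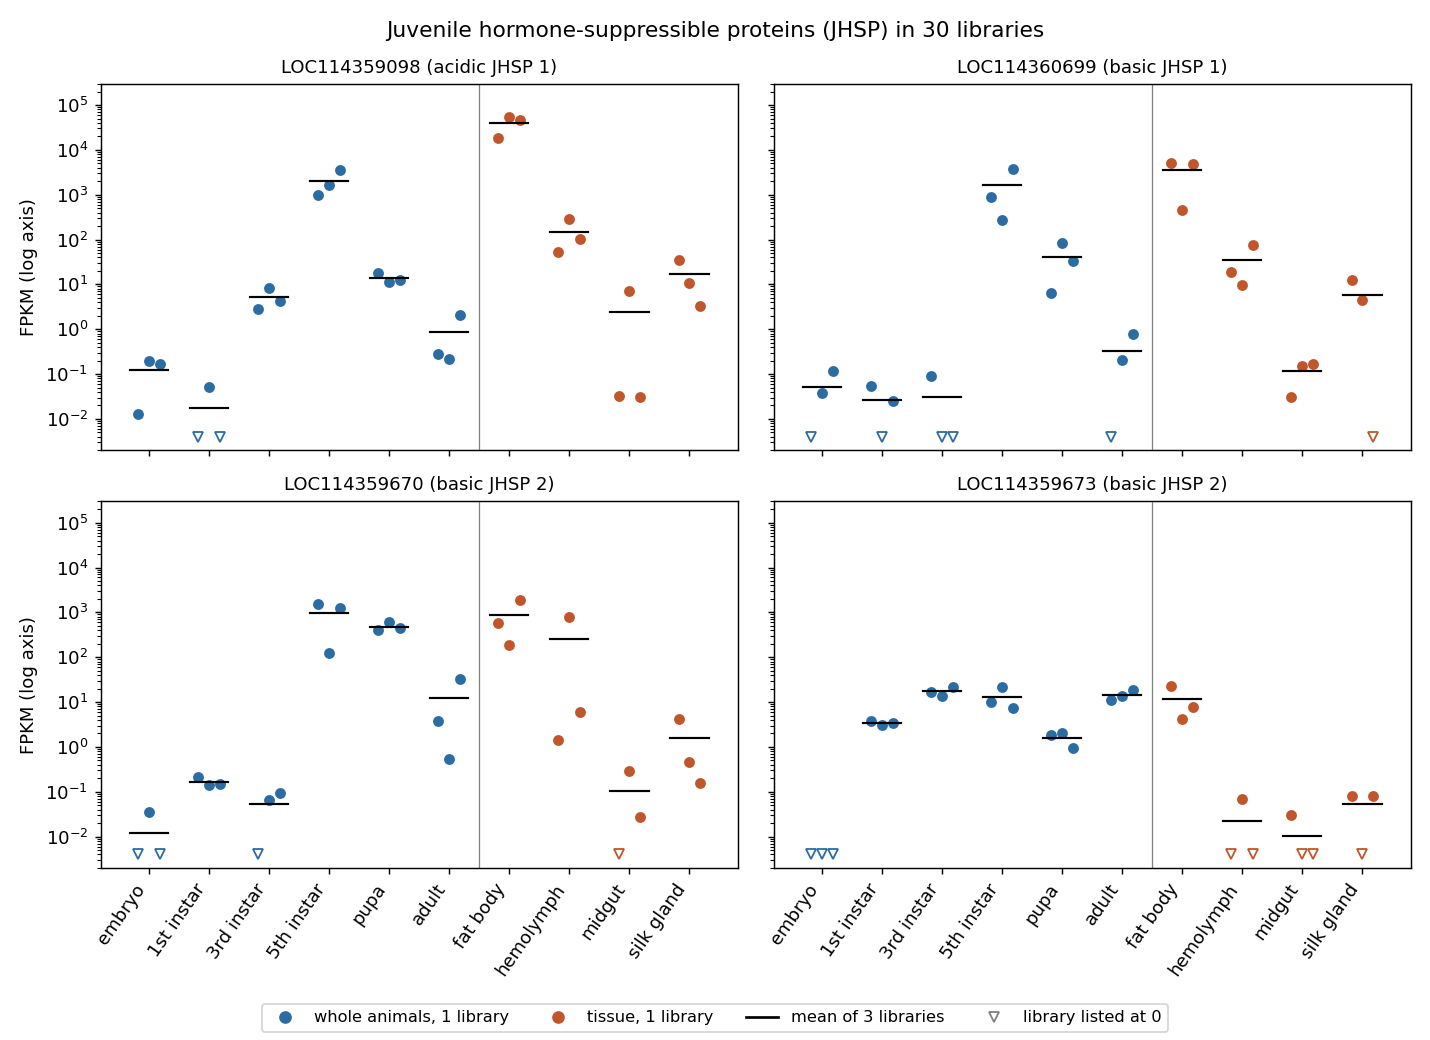
FPKM (log axis) of the 4 juvenile hormone-suppressible protein models in every library, arranged as for the arylphorins. Points are libraries, lines are means of 3 libraries, and open triangles are libraries listed at 0. LOC114359098, LOC114360699 and LOC114359670 lie at or below 8.42 FPKM in whole 3rd instars but reach 189 FPKM or more in each fat body library.

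In the fat body labelled as 3rd instar, 3 of the 4 were high. LOC114359098 had 18262, 55403 and 45265 FPKM there, LOC114360699 had 5114, 447 and 4900.5 FPKM, and LOC114359670 had 594, 189 and 1901 FPKM. The 4 arylphorins and 4 juvenile hormone-suppressible proteins together took 16.7%, 28.5% and 24.3% of the fat body fragments assigned to gene models. Fat body was called higher than hemolymph for LOC114359098 (8.26, SE 0.65), LOC114360699 (6.47, SE 1.06) and LOC114359673 (3.34, SE 0.51), and not for LOC114359670 (4.66, SE 2.0, adjusted p = 0.0830), which overlapped through hemolymph replicate 2.

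The storage proteins differed in the share of the fat body mean that whole larvae held. Whole 5th instars held on average 3.12% of the fat body mean for LOC114359093 (0.579 to 6.90% by library), 3.31% for LOC114353553 (0.723 to 7.23%), 2.09% for the added model (0.175 to 5.15%) and 5.19% for LOC114359098 (2.46 to 8.92%), with replicate 3 the highest each time. On average they held far more of it for LOC114359671 (125%, 79.0 to 169%), LOC114359670 (108%, 14.0 to 168%) and LOC114360699 (47.4%, 7.98 to 109%). Whole 3rd instars held 5.67% for LOC114359093 and 6.37% for the added model, but 0.663% for LOC114353553, 0.307% for LOC114359671, 0.0131% for LOC114359098, 0.00594% for LOC114359670 and 0.000886% for LOC114360699. LOC114359673 stood at 112% in whole 5th instars and 149% in whole 3rd instars. The fat body marker genes summed to 611–929 FPKM in whole 5th instars and 1128–2633 FPKM in whole 3rd instars. Whole animals and fat body were separate pools, and this contrast was not tested beyond the ratios above.

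**Figure D5:**
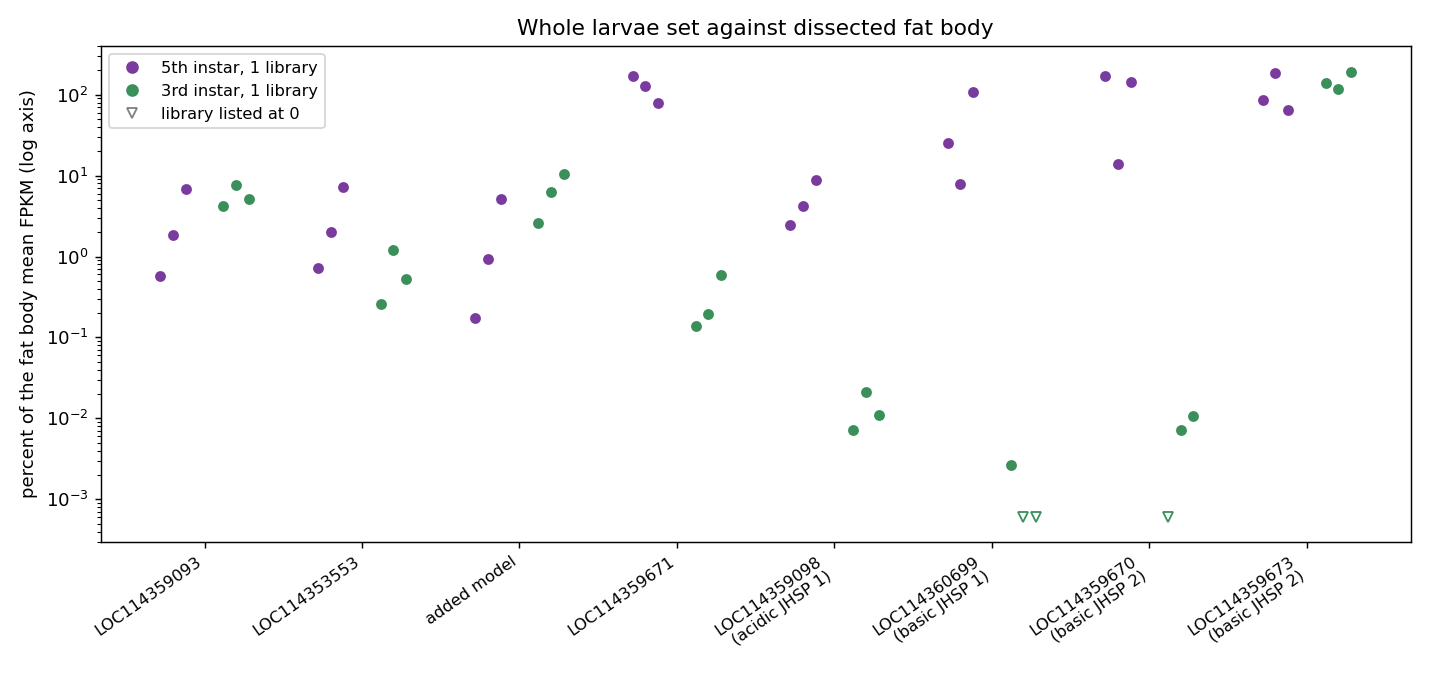
FPKM of 4 arylphorin and 4 juvenile hormone-suppressible protein models (JHSP) in whole 5th and 3rd instar larvae, as a percentage of the mean of the 3 fat body libraries (log axis). Points are libraries, and open triangles are libraries listed at 0. Both instars overlap for LOC114359093, LOC114353553, the added model and LOC114359673, while for LOC114359671, LOC114359098, LOC114360699 and LOC114359670 every 5th instar library lies above every 3rd instar library.

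The word list for storage hexamers held 8 gene models beside the arylphorins: the 4 just described, LOC114362712, a fibrohexamerin-like gene for a silk protein that is no storage hexamer, and LOC114353842, LOC114362344 and LOC114362942, named after the vicilins of plant seeds. In 5th over 3rd instars 4 of 7 tested were called higher and 0 lower by limma-trend (0 lower at an unadjusted p under 0.05), beside 6.81% and 4.08% of all genes, with a median of 3.12 beside 0.05 over all genes, and the fourth gene called was LOC114362344. In pupae over 5th instars 0 of 8 were called higher (1, LOC114362344, at an unadjusted p under 0.05) and 4 lower by limma-trend, beside 7.82% and 12.4% of all genes, with a median of -1.48 beside 0.03. In fat body, 4 of 7 tested were called higher and 1 lower than in hemolymph (23.3% and 16.5% of all genes), 5 of 6 higher than in midgut (16% of all genes), and 4 of 6 higher and 2 lower than in silk gland (18.4% and 15.1% of all genes), where LOC114362712 had 14711 to 18146 FPKM.

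The genes most alike in profile to each arylphorin were sought by Pearson's r of log2(FPKM + 1) over the 30 libraries, which fall into only 10 groups, so r describes the groups and carries no p. LOC114359093 was closest to the added model (r = 0.985), LOC114353553 (r = 0.974) and LOC114359672 (r = 0.969). The same set of models led for LOC114353553, with r = 0.974, 0.958 and 0.934 for LOC114359093, the added model and LOC114359672, and for the added model its r with LOC114359672 was 0.977. LOC114359672 carries no description in the table, is listed as a pseudogene by RefSeq and lies from 127636 to 130982 on the scaffold of LOC114359671. It averaged 3436 FPKM in fat body, 801 in 3rd and 214 in 5th instars.

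LOC114359671 stood apart, with r = 0.563 to 0.698 with the other 3 arylphorins. Its closest genes were LOC114359098 (r = 0.830), LOC114364876 (r = 0.818), described as probable cytochrome P450 304a1, and another model added by the authors (r = 0.794), which has no description and lies from 383 to 5997 on NW_021136656.1. Over the 10 group means the r with LOC114359098 was 0.905 and that with LOC114364876 was 0.943. LOC114364876 and the undescribed model were low throughout, with highest group means of 6.14 and 5.14 FPKM, both in fat body. Their r thus rests on low values.

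Juvenile hormone and ecdysone time the switch of the larval fat body from storage to metamorphosis, so genes named for both hormones were listed. Of 33 such genes, most of them juvenile hormone esterase-like, 25 could be tested between 5th and 3rd instars, and 1 was called higher and 2 lower, beside 6.81% and 4.08% of all genes, with a median of 0.16 beside 0.05. Shares this near those of all genes are no result about the list. These 3 are named after their values were seen. LOC114359886, Krueppel homolog 1-like, an early target of juvenile hormone, averaged 3.25 FPKM in 5th instars and 23.5 FPKM in 3rd instars (log2 difference -3.01, SE 0.73, adjusted p = 0.0443). LOC114361455, a broad-complex gene for transcription factors of the larval to pupal switch, averaged 6.94 FPKM in 5th instars and 1.70 FPKM in 3rd instars (1.52, SE 0.33, adjusted p = 0.0330). LOC114350674, juvenile hormone esterase-like and thus named after the enzyme that breaks the hormone down, averaged 1.04 FPKM in 5th instars and 3.20 FPKM in 3rd instars (-1.03, SE 0.25, adjusted p = 0.0447). In pupae over 5th instars 1 of 22 was called higher and 7 lower, beside 7.82% and 12.4% of all genes. The gene of this list with the highest mean, LOC114365529, also juvenile hormone esterase-like, had 1937–2911 FPKM in silk gland and at most 83.5 FPKM in any whole-animal library.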

How the data were processed

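RNA of 30 pooled samples was sequenced. Per the methods, the authors cleaned reads with fastp, aligned them with HISAT2 2.0.5 and took levels with RSEM, whose estimates need not be whole; the submitters' processing notes list mm10, a mouse build, which cannot be the genome of this table. The authors deposited 1 table of 20852 gene models. Its header names no unit. The deposited values are FPKM: times gene length, all values of up to 200 fragments were whole multiples of 1 amount per library (tolerance 0.02), and fragments were recovered from that amount. The effective library size was 0.447 to 2.42 times the fragments per library.

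Columns were assigned to groups by their labels. Genes reaching 1 FPKM in 3 or more of a pair's 6 libraries (in 2 or more when a library was dropped) were tested by limma-trend on log2(FPKM + 1), with Benjamini-Hochberg adjustment over all genes tested. The 15 stage and 6 tissue pairs were fitted separately. The design named a count test in case the table held counts, which it does not. The members, word lists and tests were chosen with earlier results of these data known. Named genes are the 4 members, the storage hexamer list, the 3 genes most like each member among those with a mean of at least 1 FPKM, and the gene with the highest mean of each marker list and of the hormone list; 3 hormone genes and 3 midgut list genes outside this rule are named after their values were seen. Intervals and floors of 3 fragments cover counting error only.

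The test was tried on simulated data. Alternatives were a pseudocount of 0.1, no filter, a joint fit of all stages or of all tissues, a block for the replicate number, each library dropped in turn, scaling to recovered fragments or by medians of ratios, and limma-voom on recovered fragments. Gene sequences were not used here. Replicate numbers come from the sample titles. R 4.3.3 with limma 3.58.1 and Python 3.11.15 with numpy 2.4.6, pandas 2.3.3 and matplotlib 3.10.9 were used.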

Additional observations from a re-analysis of the deposited data

How the results depend on the processing

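The 36 calls of the arylphorins over stages numbered 36 to 37 and the 17 calls over tissues 17 to 19 when 1 library was left out, and likewise under the other alternatives. The 3 models called higher in fat body than in all other tissues were 3 to 4 with 1 library left out, and 0 were lower. Directions turned in 2 comparisons. The difference of pupa over 1st instar for LOC114359093 (0.02) was -0.30 without 1st instar replicate 2, -0.09 without pupa replicate 1 and -0.22 without pupa replicate 3, and ran from -0.30 to 0.37 over the libraries left out. Hemolymph over silk gland turned to 0.89, 1.53 and 1.28 for LOC114359093, LOC114353553 and the added model when scaled to recovered fragments, to 0.90, 1.55 and 1.33 with limma-voom (adjusted p = 0.101, 0.0338 and 0.0714), and for LOC114353553 to 0.29 without hemolymph replicate 1 and 0.04 without silk gland replicate 1, in a range of -0.73 to 0.29 over the libraries left out; the cause was not tested. Between the deposited scaling and recovered fragments the median of all genes moved by -1.42 (3rd instar over embryo) to 1.47 (hemolymph over silk gland).

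With the replicate number as a block, 36 stage calls, 17 tissue calls and 3 models higher in fat body were found, and no call of a member changed. Deviations of same-numbered libraries were correlated above 0.1 in all 3 pairs only between 3rd and 1st instars (0.379, 0.666 and 0.145). A pseudocount of 0.1 gave larger differences for models near 0 in one group, such as 4.18 in place of 2.10 for LOC114359093 in 1st instars over embryos, without changing a call. Models under 1 FPKM in 4 or more of the 6 libraries of a pair were not tested.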
